A study of Mus musculus with 8 samples.

Results

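The Srsf and Hnrnp genes of the mouse, which encode the serine/arginine-rich splicing factors (SR proteins) and the heterogeneous nuclear ribonucleoproteins (hnRNPs), were followed through the neural and oligodendrocyte lineages of the dentate gyrus (DG). Members were chosen by symbol alone, as Srsf followed by a number from 1 to 12 or Hnrnp followed by letters and digits. This gave 31 of the 31058 genes in the count matrices, of which 11 were Srsf and 20 were Hnrnp genes. The rule itself uses no measured value, but this group of genes was chosen with earlier results of these data known.

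SR proteins carry RNA recognition motifs and an arginine/serine-rich tail, bind exonic enhancers and recruit the spliceosome to nearby splice sites. hnRNPs coat nascent transcripts and often oppose SR proteins at the same exon, and many also act in the export, stability or translation of mRNA. Several members of both families hold back their own protein through ultraconserved "poison" exons or retained introns that send the transcript to nonsense-mediated decay. The balance of both families is known to shape alternative splicing in the developing nervous system, where it acts beside lineage regulators such as the Ptbp, Nova, Rbfox and Elavl proteins.

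The study profiled single cells of the DG by 10x Genomics 3' sequencing to follow hippocampal neural stem cells (NSCs) with age. All mice carried Nestin-GFP, which drives GFP from Nestin regulatory sequence active in NSCs, together with Ki67-creERT2 and a tdTomato reporter, so that tamoxifen marked cells that were proliferating. The mice were heterozygous for all 3 transgenes on a mixed C57BL/6J and CD1 background, received tamoxifen for 6 days and were culled on the 8th day, and 2 to 5 males and females were pooled in an experiment. The mice of 1 experiment were 1 month old, those of 3 others 2 months and those of the remaining 3 from 6-8 months, with no untreated or wild-type group. Cells were sorted as GFP+tdT+ and GFP+tdT- in all libraries but those of 2-month experiment 1, where 1 library is labelled GFP+tdT+ and GFP-tdT- and the other GFP+tdT-. The 2-month libraries used 10x chemistry Version 2 and the others Version 3, so that age 2 months and chemistry cannot be told apart. Mice were pooled, so a p-value below rests on how the difference between gates varied across experiments and not between single animals.

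The 8 libraries held 26036 cell barcodes and from 4861883 to 43826338 molecules (unique molecular identifiers, UMIs) each. Of these barcodes, 59 sequences occurred in more than 1 library, which is 0.227% of all barcodes, and no pair of libraries shared more than 13. After the filters on genes and mitochondrial share 24376 cells remained, and 17625 (72.3%) fell into 1 of 9 gates set by marker genes. The gates held 1415 quiescent NSC-like, 930 astrocyte-like, 1053 cycling neural progenitor-like, 674 intermediate progenitor-like, 1747 neuroblast-like, 5564 oligodendrocyte precursor (OPC)-like, 190 cycling OPC-like, 238 newly formed oligodendrocyte-like and 5814 myelinating oligodendrocyte-like cells. At least 10 cells were required in an experiment, which 3 experiments met for cycling OPC-like cells and 4 for newly formed oligodendrocyte-like cells; the other gates had all 7.

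Genes not used for gating served to check the gate names. Values are given here for the cycling and myelin lists only, and not for the split of quiescent NSC-like from astrocyte-like cells. A list of 6 other cycling genes summed to 786 CPM (UMIs of a gene per 1000000 UMIs of all genes) in cycling neural progenitor-like cells and 839 CPM in cycling OPC-like cells, against 14.7 and 26.2 CPM in quiescent NSC-like and OPC-like cells. The cycling neural gate held markers of more than 1 stage, with Hopx of radial glia-like stem cells at 270 CPM and Eomes of intermediate progenitors at 250 CPM. Unlike the lists here, Hopx and Eomes belong to the gate lists, and Eomes can admit a cell to this gate. A list of 6 myelin genes was summed at 54792 CPM in myelinating oligodendrocyte-like cells and still at 1178 CPM in OPC-like and 623 CPM in quiescent NSC-like cells.

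Each value below is a gene's share of all UMIs of a gate in an experiment, in CPM. A 3' UMI is counted once per molecule whatever the length of the transcript. Levels of different genes are still not strictly comparable, since several members differed between chemistries in opposite directions, as given below. A share says nothing about the amount of RNA in a cell, and the gates differed in depth. Gates count detected marker genes, so a gate with a high minimum favours deeper cells. Over cells of both chemistries, the median ran from 2270 UMIs per cell in astrocyte-like to 14922 in newly formed oligodendrocyte-like cells. The gates differ in their mix of chemistries, and in the 1-month experiment these medians were 5263 and 14351. Quiescent NSC-like cells had a median of 5386 there.

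Promoter sequence from RefSeq (GRCm38.p6, the build of the count files) was found for 29 of the 31 members, Hnrnpll and Hnrnpul2 being the others. Of the 250 bases before the start, the CCAAT motif (CCAAT or its reverse complement ATTGG) was present in 15 of the 29 promoters (51.7%), against 34.5% of all 27025 promoters. The GC box (GGGCGG, on both strands) was present in 23 of 29 (79.3%) against 32.9%, and the median GC content was 65.2% against 52.0%. E2F-type letters (TTCCCGCC or TTTGGCGC) were present in 5 of 29 (17.2%) against 2.29%, in Hnrnpa2b1, Hnrnpul1, Srsf1, Srsf10 and Srsf4. The ETS-type motif (CCGGAAGT) was found in 4 of 29 (13.8%) against 2.93%, a TATA box (TATAAA) in 3 (10.3%) against 13.0%, and the cyclic AMP response element (TGACGTCA) in 0 of 29 against 1.62%. These are matches of letters, searched on both strands with overlaps allowed, and not sites of binding.

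The promoters of 4 members are printed because these genes mark the ends of what follows, with Hnrnpab and Hnrnpa1 showing the largest differences at the step into cycling, Srsf3 the highest level among Srsf genes in cycling cells, and Srsf5 the opposite direction. They run 5' to 3' on the gene's strand up to the RefSeq start, or for Srsf3 up to the annotated gene, and capitals mark CCAAT-motif matches in Hnrnpab (chr11:51606882-51607131, minus strand), Hnrnpa1 (chr15:103240147-103240396, plus strand) and Srsf3 (chr17:29032410-29032627, plus strand), and ETS-type matches in Srsf5 (chr12:80945249-80945498, plus strand).
Hnrnpab: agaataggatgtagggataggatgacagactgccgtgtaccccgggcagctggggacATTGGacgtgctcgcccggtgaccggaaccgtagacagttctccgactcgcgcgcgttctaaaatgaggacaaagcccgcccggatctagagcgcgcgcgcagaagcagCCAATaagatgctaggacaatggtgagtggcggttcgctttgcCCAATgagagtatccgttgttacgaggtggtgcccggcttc
Hnrnpa1: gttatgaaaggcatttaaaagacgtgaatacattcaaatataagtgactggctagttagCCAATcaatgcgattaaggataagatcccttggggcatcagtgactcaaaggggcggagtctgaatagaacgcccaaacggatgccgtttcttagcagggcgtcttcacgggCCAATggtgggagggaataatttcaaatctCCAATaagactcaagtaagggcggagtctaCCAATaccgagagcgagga
Srsf3: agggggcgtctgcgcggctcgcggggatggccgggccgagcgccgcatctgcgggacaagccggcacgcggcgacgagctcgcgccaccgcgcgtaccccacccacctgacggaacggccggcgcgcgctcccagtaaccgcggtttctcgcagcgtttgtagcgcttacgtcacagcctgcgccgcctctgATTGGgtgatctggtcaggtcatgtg
Srsf5: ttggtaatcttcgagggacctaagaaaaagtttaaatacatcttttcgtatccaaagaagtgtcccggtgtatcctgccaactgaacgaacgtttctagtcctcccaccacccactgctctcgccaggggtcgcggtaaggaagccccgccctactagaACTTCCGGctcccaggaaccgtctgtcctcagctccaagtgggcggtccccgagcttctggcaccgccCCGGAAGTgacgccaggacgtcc
Hnrnpab held 3 CCAAT-motif matches and Hnrnpa1 held 4, Srsf3 had 1, and Srsf5 had none but carried 2 ETS-type matches. These 4 were picked by their differences, and a link of motif and direction was not tested. ETS-type matches were also found in Hnrnpd, Hnrnpf and Srsf4, which were higher at the step into cycling. The CCAAT motif was absent in Hnrnpd and Srsf7, which were higher there, and present in Hnrnph2, which was not called.

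The members lie on 16 chromosomes. In the GENCODE annotation of the same build, 19 of 31 have a transcript marked as a target of nonsense-mediated decay and 22 have a retained-intron transcript, which among Srsf genes is 9 and 8 of 11. UMIs were counted per gene, so such transcripts are included in every value. Hnrnpm overlaps March2 on the same strand in exon sequence, so its count may be affected there, in a direction that was not checked.

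Both families took their largest share of UMIs in cycling neural progenitor-like cells and their smallest in astrocyte-like and myelinating oligodendrocyte-like cells. Summed over 20 genes, Hnrnp took 1.03% ± 0.0894 of UMIs (SD, n = 7 experiments) in cycling neural progenitor-like cells, 0.803% ± 0.0906 in intermediate progenitor-like and 0.708% ± 0.0381 in neuroblast-like cells. In quiescent NSC-like cells it took 0.384% ± 0.0399 and in astrocyte-like cells 0.268% ± 0.0282 (both n = 7). The neural progeny thus stood above the glial gates for this family, with the lowest neuroblast-like experiment at 0.659% and the highest cycling OPC-like experiment at 0.649%.

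Along the oligodendrocyte lineage, Hnrnp took 0.431% ± 0.0368 in OPC-like (n = 7), 0.629% ± 0.0252 in cycling OPC-like (n = 3), 0.471% ± 0.0475 in newly formed oligodendrocyte-like (n = 4) and 0.296% ± 0.0387 in myelinating oligodendrocyte-like cells (n = 7). In the order of all gates, the neighbours whose ranges over experiments did not overlap were neuroblast-like and cycling OPC-like, cycling OPC-like and newly formed oligodendrocyte-like, and quiescent NSC-like and myelinating oligodendrocyte-like cells. The ranges of all other neighbours overlapped. These ranges pool the chemistries and leave out the pairing of gates within an experiment. Within an experiment, intermediate progenitor-like cells were below cycling neural progenitor-like cells in 7 of 7. Neuroblast-like cells were below intermediate progenitor-like cells, and OPC-like above quiescent NSC-like cells, in 7 of 7 each. The mean ratios of these 2 pairs were 0.885 and 1.12, with the smallest single gaps at -0.053 and 0.031 on the log2 scale.

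The 11 Srsf genes summed to 0.460% ± 0.0551 in cycling neural progenitor-like, 0.320% ± 0.0387 in intermediate progenitor-like, 0.300% ± 0.0211 in neuroblast-like, 0.214% ± 0.0374 in quiescent NSC-like and 0.158% ± 0.0363 in astrocyte-like cells (SD, n = 7). In the oligodendrocyte lineage they summed to 0.251% ± 0.0312 in OPC-like (n = 7), 0.325% ± 0.0162 in cycling OPC-like (n = 3), 0.273% ± 0.0379 in newly formed (n = 4) and 0.151% ± 0.0201 in myelinating oligodendrocyte-like cells (n = 7). By ranges over experiments, only the cycling neural progenitor-like gate was separated from its neighbour in this order. Its lowest experiment (0.402%) lay above the highest of cycling OPC-like cells (0.342%). Within an experiment, neuroblast-like cells were below intermediate progenitor-like cells, and OPC-like above quiescent NSC-like cells, in 7 of 7 each.

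**Figure D1:**
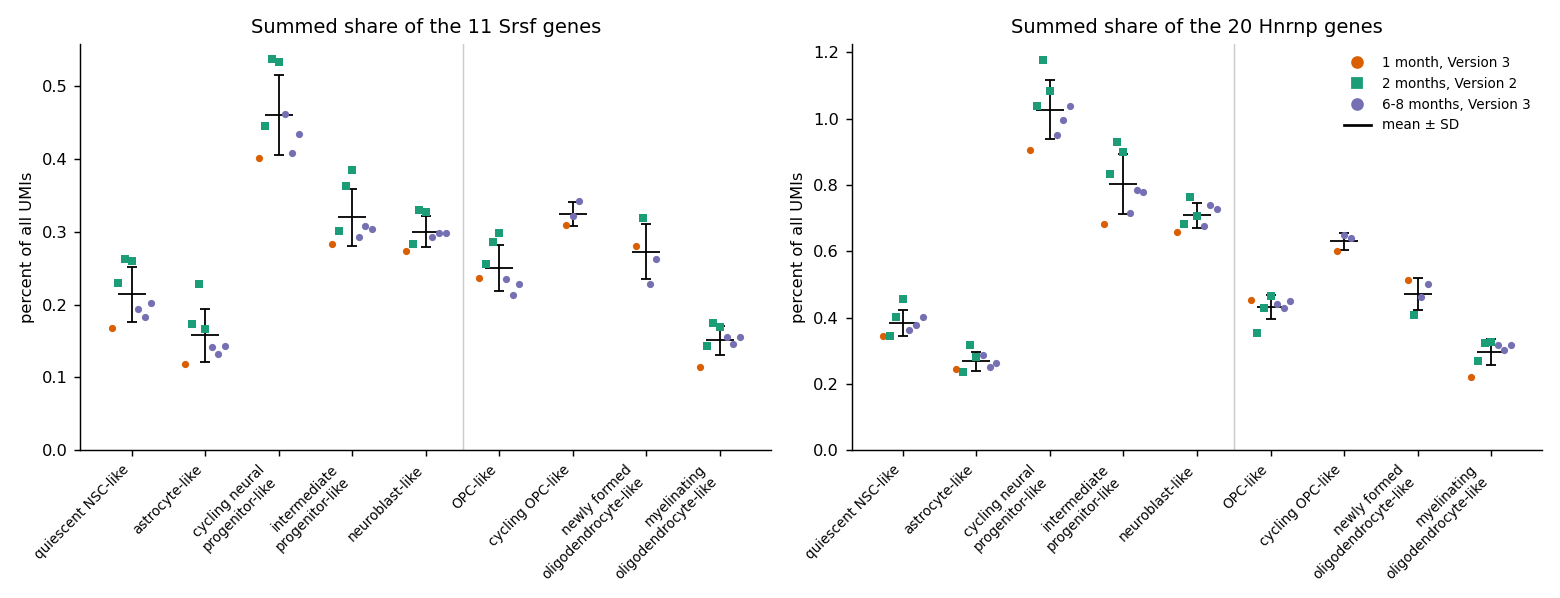
Summed share of all UMIs, in percent, of the 11 Srsf genes and the 20 Hnrnp genes in each of the 9 gates, with 1 point per experiment and bars for the mean and SD. Cycling neural progenitor-like cells stand highest in both panels (means 0.460% and 1.03%), and astrocyte-like and myelinating oligodendrocyte-like cells lowest.

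Within an experiment the families moved alike but not equally. From quiescent NSC-like to cycling neural progenitor-like cells the Srsf share was 2.16-fold and the Hnrnp share 2.68-fold higher, in 7 of 7 experiments each. From OPC-like to cycling OPC-like cells both were about equally higher, 1.43-fold and 1.42-fold (3 of 3 experiments). Neuroblast-like cells held 0.655 of the Srsf share and 0.691 of the Hnrnp share of cycling neural progenitor-like cells, and astrocyte-like cells 0.731 and 0.699 of those of quiescent NSC-like cells, lower in 7 of 7 experiments throughout.

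Counted per cell rather than as a share, the gap was wider, and cycling cells also held more UMIs in all. In the 4 Version 3 experiments a quiescent NSC-like cell held on average 10.0 Srsf and 20.1 Hnrnp UMIs and a cycling neural progenitor-like cell 55.7 and 128. An OPC-like cell held 14.7 and 28.6 UMIs there, and in the 3 experiments with enough cells a cycling OPC-like cell held 36.9 and 71.6. Cycling gates required at least 5 detected cycling genes, and the quiescent NSC-like and OPC-like gates allowed at most 2. Counting detected genes favours deeper cells in the cycling gates, so the gating itself can widen the gap per cell. The size of that part was not tested.

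In the 3 experiments that held all 9 gates (1 month and 6-8 months 2 and 3, all Version 3), 22 of 31 members had their highest mean level in cycling neural progenitor-like cells. The lowest mean was in astrocyte-like cells for 23 members and in myelinating oligodendrocyte-like cells for the other 8. Highest and lowest gates were not counted over all genes, so these counts have no background and may not be particular to the members. The span differed between members. Srsf12 aside, which rests on few UMIs, 3 Hnrnp genes had the widest. Hnrnpa1, which binds intronic silencers and shuttles to the cytoplasm, ran from 71.5 CPM in astrocyte-like to 1283 CPM in intermediate progenitor-like cells (18.0-fold). Hnrnpab, an RNA-binding protein related to Hnrnpd, ran from 48.9 CPM in astrocyte-like to 635 CPM in cycling neural progenitor-like cells, and Hnrnpd, which binds AU-rich elements and marks mRNAs for decay, spanned 8.10-fold between the same gates. At the other end Srsf5 spanned 1.38-fold and Hnrnph2 1.85-fold.

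A few members peaked elsewhere. Srsf6 and Srsf9 were highest in newly formed oligodendrocyte-like cells (273 and 237 CPM), narrowly above cycling neural progenitor-like cells (271 and 233 CPM). Hnrnph3 peaked in intermediate progenitor-like cells (358 CPM), Hnrnpll in neuroblast-like cells (69.0 CPM), Hnrnpul1 in cycling OPC-like cells (132 CPM), Hnrnph2 in myelinating oligodendrocyte-like cells (93.9 CPM) and Srsf5 in quiescent NSC-like cells (360 CPM). Srsf12 was the rarest member and was highest in OPC-like cells at 14.0 CPM, with 4 UMIs in all astrocyte-like cells of the 7 experiments.

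**Figure D2:**
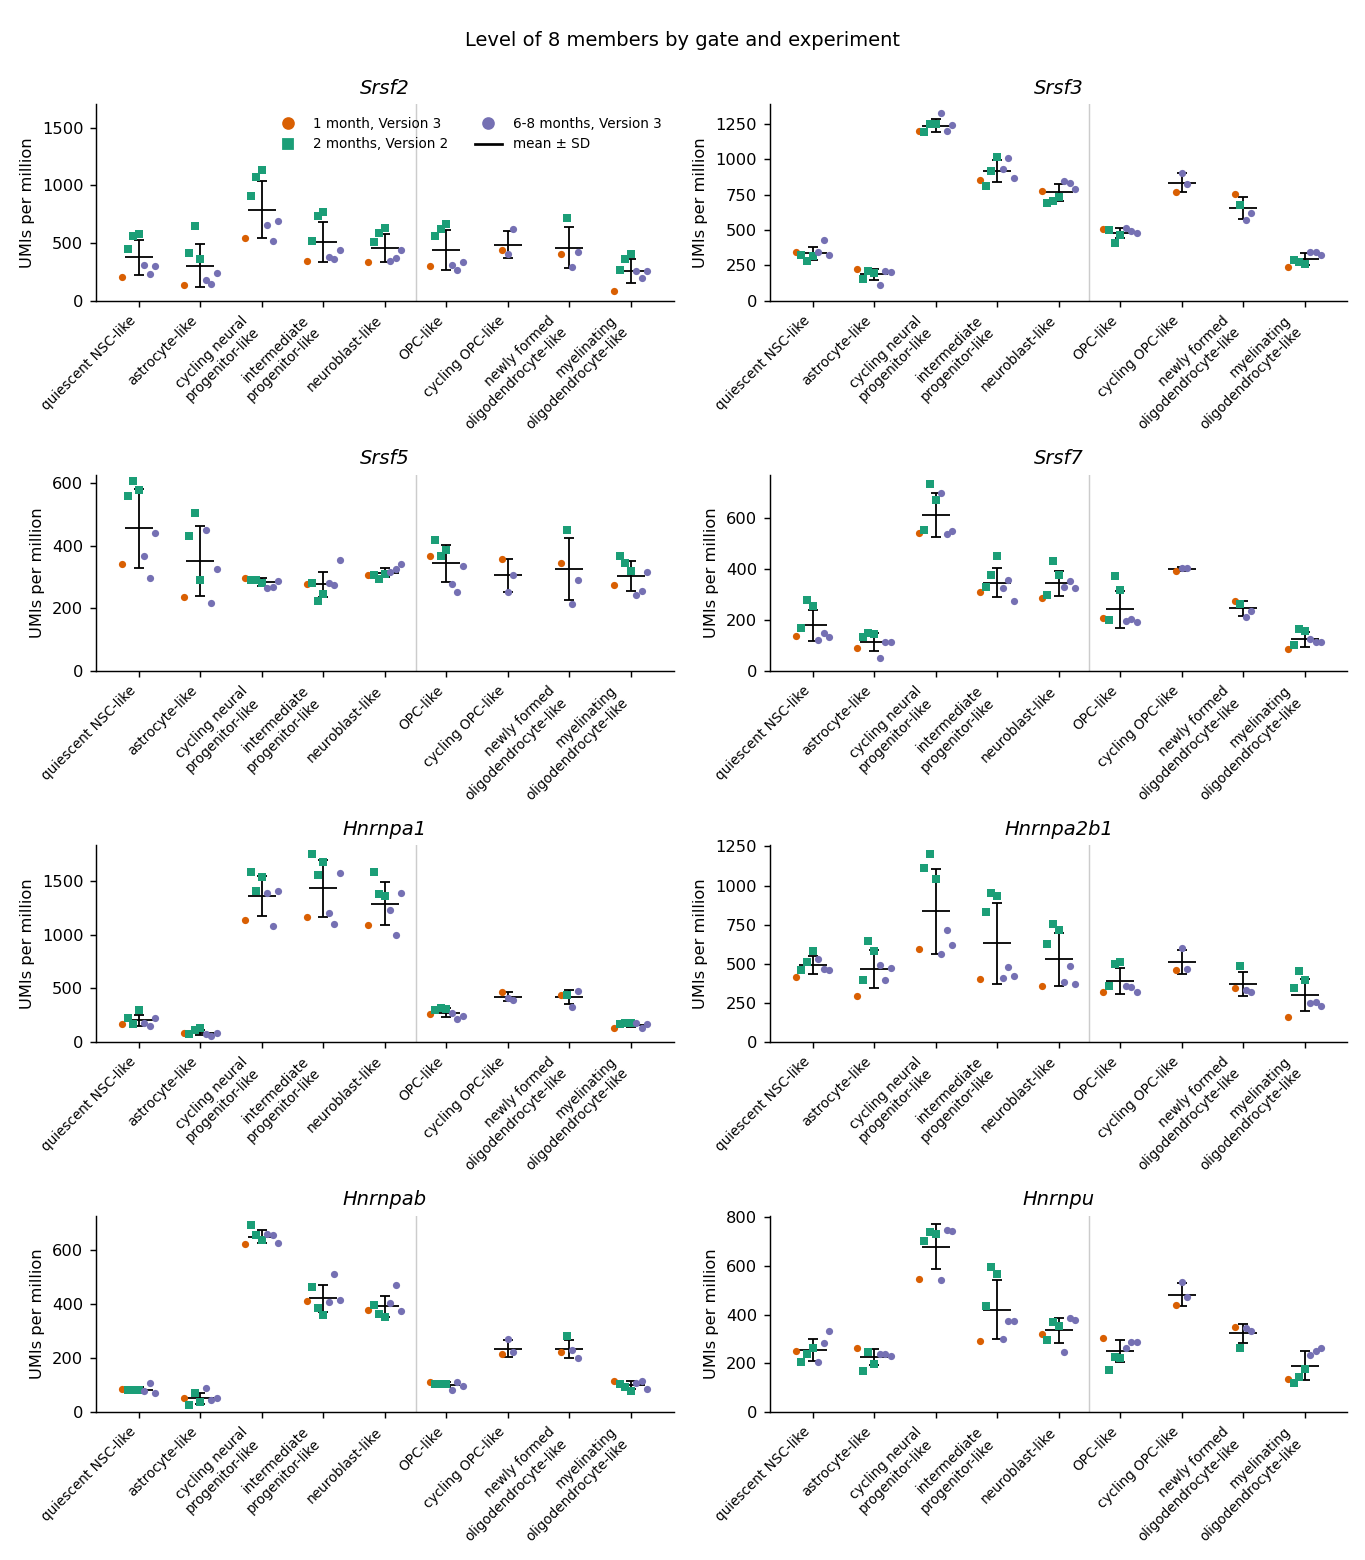
Level in CPM of 8 members in the 9 gates, 1 point per experiment, with bars for the mean and SD. Hnrnpa1 and Hnrnpab separate the cycling neural progenitor-like, intermediate progenitor-like and neuroblast-like gates from all others, whereas Srsf5 stays between 215 and 606 CPM in every gate and experiment.

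The step from quiescence into the cell cycle in the neural lineage was addressed by comparing cycling neural progenitor-like with quiescent NSC-like cells in 7 experiments. Of 30 members tested, 28 were higher and 1 was lower at an adjusted p under 0.05 in edgeR's quasi-likelihood test, while 36.2% of all 9037 genes tested were called higher and 32.3% lower. The median difference was 1.29 on the log2 scale for the members and 0.07 for all genes. Both families took part, with 9 of 10 Srsf (median 1.13) and 19 of 20 Hnrnp genes (median 1.34) higher.

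Hnrnpab showed the largest difference. Its level ran from 71.2 through a median of 82.1 to 107 CPM in quiescent NSC-like cells and from 622 through 656 to 694 CPM in cycling neural progenitor-like cells. The groups were far apart, and the difference was 2.96 ± 0.10 (log2, SE; adjusted p = 1.1e-23).

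Hnrnpa1 ran from 145 through 173 to 292 CPM in quiescent NSC-like cells and from 1086 through 1409 to 1591 CPM in the cycling gate. No experiment of either gate came near the other, and the difference was 2.79 ± 0.10 (adjusted p = 1.3e-23). Hnrnpd went from 30.0, 133 and 149 CPM (lowest, median, highest) to 171, 501 and 655 CPM, a difference of 2.12 ± 0.11. Here the low values were those of the Version 2 experiments, and the ranges still did not meet.

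Hnrnpa0, an intronless relative of Hnrnpa1 that binds AU-rich elements, ran from 12.6 through 219 to 358 CPM and from 98.9 through 933 to 1097 CPM in the same 2 gates. Its ranges overlapped across chemistries, but it was higher in the cycling gate in 7 of 7 experiments, by 1.89 ± 0.11 over all, 1.78 in Version 2 and 1.90 in Version 3 experiments alone.

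Among the other hnRNPs, Hnrnpu, a nuclear scaffold protein that binds chromatin and RNA, lay between 205 and 332 CPM (median 251) in quiescent NSC-like and between 541 and 749 CPM (median 731) in cycling neural progenitor-like cells, without overlap. The difference was 1.39 ± 0.09 (adjusted p = 2.7e-15). Hnrnpa2b1, an hnRNP core protein also known for mRNA trafficking, lay between 415 and 583 CPM (median 467) against 563 to 1205 CPM (median 713). It was higher by only 0.70 ± 0.11 (adjusted p = 4.7e-07) and the ranges overlapped.

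Among the SR proteins Srsf3, the smallest of them and a link between splicing and mRNA export, had from 278 through 326 to 427 CPM in quiescent NSC-like cells and from 1194 through 1241 to 1328 CPM in the cycling gate. These groups did not overlap and differed by 1.87 ± 0.09 (adjusted p = 3.4e-19). Srsf7, its close relative with a zinc knuckle, had 123, 151 and 278 CPM against 539, 553 and 735 CPM, again without overlap, and differed by 1.85 ± 0.10. Srsf2, which acts in splice site choice and transcriptional elongation, had 204, 312 and 576 CPM against 521, 691 and 1128 CPM. Its ranges overlapped where Version 2 values of the quiescent gate, all above those of Version 3, met Version 3 values of the cycling gate, and it differed by 1.13 ± 0.09 and in the same direction in 7 of 7 experiments.

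Srsf5 was the exception. It was the only member called lower, from 296, 440 and 606 CPM in quiescent NSC-like to 266, 289 and 297 CPM in cycling neural progenitor-like cells, a difference of -0.60 ± 0.10 (adjusted p = 3.3e-06) found in 7 of 7 experiments. The cycling values were narrowly grouped, and their highest only just reached the lowest of the quiescent gate. The difference was -1.00 in the Version 2 and -0.35 in the Version 3 experiments. In quiescent NSC-like cells the mean level of Srsf5 was 580 CPM and that of Srsf3 306 CPM in the Version 2 experiments. In the Version 3 experiments they were about equal, at 362 and 359 CPM. In cycling neural progenitor-like cells Srsf3 was above Srsf5 in 7 of 7 experiments. Hnrnph2, an X-linked relative of Hnrnph1, was the member not called, at 0.23 ± 0.12 (adjusted p = 0.086).

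Other cell-state markers moved with these differences, in part by construction. Quiescent NSC-like cells were limited in neuroblast gate markers, whereas such markers can admit a cell to the cycling gate. The 6 genes listed for neuroblasts and not used for gating were Elavl2, Ccnd2, Stmn1, Tubb2b, Dpysl3 and Gal. The study found Ccnd2 to rise along its path from quiescence to activation, so the list is not specific to neuroblasts. These genes summed from 8411 to 9898 CPM in the cycling gate and from 1827 to 2993 CPM in quiescent NSC-like cells. All 6 were detected in both gates, and median UMIs per cell were 9650 and 4122. Their part in the result was not tested. Within chemistry, 29 members were called higher in the 3 Version 2 and 28 in the 4 Version 3 experiments, and 1 lower in each. Of all genes, 2408 of 9005 were higher and 2245 lower in Version 2, and 3051 of 8868 higher and 2686 lower in Version 3.

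Other parts of the splicing machinery were read from lists set up for the purpose. Of 26 core snRNP genes, which build the spliceosome itself, 23 were higher and 1 lower (median 0.96), led by Snrpf (1.65 ± 0.10). Of 13 hnRNP proteins that go by other symbols, 12 were higher and none lower, led by the cold-inducible Rbm3 (2.57 ± 0.10), Raly (1.66 ± 0.11) and Syncrip (1.61 ± 0.11). Of 10 SR-related genes 5 were higher and 2 lower, with the exon-inclusion factor Tra2b at 1.50 ± 0.12, and among 9 tested SR protein kinases and import factors 5 were higher and 3 lower, with Srpk1 at 1.25 ± 0.13. Regulators typical of neurons were higher as well, such as Elavl2 (4.54 ± 0.13) and Rbfox3 (4.34 ± 0.21), within a list of which 13 of 22 were higher and 5 lower. The limit on neuroblast markers in the quiescent gate bears on these regulators too, and Elavl2 is also in the neuroblast list above.

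**Figure D3:**
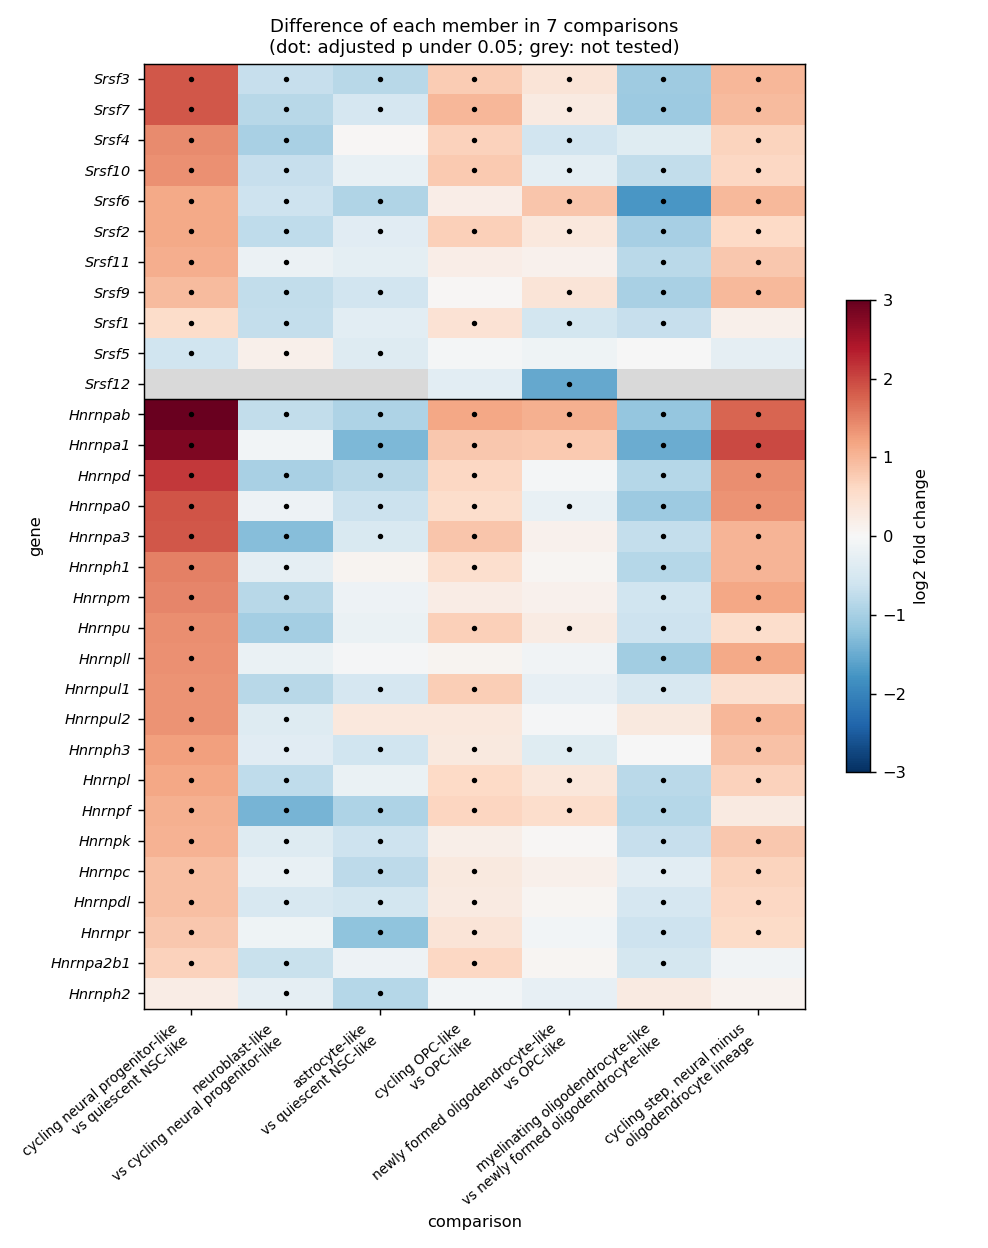
Difference of each member (log2 fold change, colour) in the 6 comparisons of gates and in the comparison of the 2 cycling steps, with a dot where the adjusted p is under 0.05 and grey where a member was not tested. The column of cycling neural progenitor-like against quiescent NSC-like cells is higher for 28 members, and the column of neuroblast-like against cycling neural progenitor-like cells is lower for 26.

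Leaving the cycle for the neuroblast stage went with lower shares for most members. In neuroblast-like against cycling neural progenitor-like cells (n = 7 experiments, and the same cycling cells as above) 26 of 30 members tested were lower and 1 was higher, while 30.4% of the 8778 genes tested were called lower and 36.4% higher. The median was -0.68 for the members and 0.08 for all genes, with 9 of 10 Srsf (median -0.71) and 17 of 20 Hnrnp genes (median -0.44) lower. With Version 3 experiments alone 23 members were lower (2384 of all 8662 genes), and with Version 2 alone 26 (2132 of 8745). With TMM scaling 29 members were lower, and with DESeq2 28 (2815 and 2507 of 8778 genes).

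Hnrnpf, which binds G-rich sequence, was the member that fell most. It went from 510, 581 and 713 CPM (lowest, median, highest) in the cycling gate to 197, 218 and 258 CPM in neuroblast-like cells, by -1.39 ± 0.07 (adjusted p = 4.1e-14), and so to below the lowest of quiescent NSC-like cells (228 CPM) in its median. Hnrnpa3, a relative of Hnrnpa2b1, went from 606, 844 and 1529 CPM to 217, 396 and 635 CPM, by -1.27 ± 0.05, and Hnrnpu from 541, 731 and 749 CPM to 248, 355 and 386 CPM, by -1.01 ± 0.06. Hnrnpf and Hnrnpu had no overlap between the gates, whereas the ranges of Hnrnpa3 met across chemistries although it was lower in 7 of 7 experiments.

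Hnrnpd fell by 0.96 on the log2 scale (SE 0.07), from the values above to 87.4, 274 and 335 CPM, with overlap between chemistries. Hnrnpab fell to 354, 377 and 473 CPM, by -0.74 ± 0.06, and Hnrnpa2b1 to 354, 485 and 752 CPM, by -0.67 ± 0.05. Hnrnpab in neuroblast-like cells thus still lay above all of its quiescent NSC-like values, and the range of Hnrnpa2b1 again overlapped with them.

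Hnrnpa1 behaved differently, with 996, 1363 and 1591 CPM in neuroblast-like cells, -0.08 ± 0.04 from the cycling gate (adjusted p = 0.10, not called), and 1098, 1564 and 1751 CPM in intermediate progenitor-like cells. The ranges of the 3 gates overlapped almost fully. Hnrnpll (-0.21 ± 0.11) and Hnrnpr (-0.13 ± 0.06, adjusted p = 0.054) were the other members not called. Under TMM scaling, Hnrnpa1, Hnrnpll and Hnrnpr were all called lower, so these exceptions depend on the scaling. The SR protein transcripts followed the majority. Srsf7 went to 288, 328 and 433 CPM (-0.84 ± 0.06), Srsf2 to 331, 438 and 631 CPM (-0.77 ± 0.06) and Srsf3 to 689, 774 and 844 CPM (-0.69 ± 0.05). Srsf3 and Srsf7 did not overlap with the cycling gate and remained above all quiescent NSC-like values.

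Srsf5, with 294, 310 and 342 CPM in neuroblast-like cells, was the only member called higher (0.14 ± 0.06, adjusted p = 0.032). This call was lost under TMM scaling, with DESeq2, without the block for experiment, and when any of the 6-8-month experiments was left out, and it was 0.07 in Version 2 and 0.19 in Version 3 experiments.

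The rest of the machinery split here. Of 26 core snRNP genes 17 were lower and 1 higher (Snrpd1 -0.84 ± 0.05), and of the 13 other hnRNP proteins 11 were lower and 2 higher, with Raly (-1.29 ± 0.07), Rbm3 (-1.07 ± 0.06) and the neuronal-exon repressor Ptbp1 (-0.94 ± 0.10) moving most. Among SR-related genes 2 of 10 were higher and 4 lower (Srrm1 -0.50 ± 0.07). Clk1 and Clk4, kinases that phosphorylate SR proteins in the nucleus, went the other way, higher by 1.08 ± 0.08 and 0.78 ± 0.09. In their list 4 of 9 tested were higher and 1 lower. Among lineage regulators 13 of 25 were higher and 5 lower, with Rbfox1 at 4.20 ± 0.29 and Celf4 at 3.11 ± 0.15.

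Astrocyte-like cells were compared with quiescent NSC-like cells, with which the gating gives them a list of glial genes in common. None of 30 members tested was higher and 19 were lower (n = 7 experiments, edgeR), while 15.2% of the 8807 genes tested were called higher and 24.2% lower. At an unadjusted p under 0.05 the counts were 0 higher and 21 lower, for which no share over all genes was counted. DESeq2 called 0 members higher and 16 lower. Over all genes DESeq2 called 1259 higher and 1337 lower. The median was -0.51 for the members and -0.16 for all genes, with 6 of 10 Srsf (median -0.36) and 13 of 20 Hnrnp genes (median -0.58) lower, and 12 in all were lower without the block. In Version 2 experiments alone 14 members were lower, and in Version 3 alone 19. Of all genes, 1404 of 8807 were lower without the block, 1309 of 8850 in Version 2 and 1515 of 8621 in Version 3.

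Hnrnpa1 fell from 145, 173 and 292 CPM in quiescent NSC-like to 55.5, 77.1 and 127 CPM in astrocyte-like cells, without overlap, by -1.34 ± 0.14 (adjusted p = 1.1e-14). Hnrnpr, known for a role in the axonal transport of mRNA, went from 139, 162 and 290 CPM to 59.3, 88.7 and 139 CPM, by -1.20 ± 0.14, with all astrocyte-like values below the lowest quiescent NSC-like value, though by less than the rounding. Hnrnpf went from 228, 292 and 347 CPM to 75.2, 159 and 164 CPM, by -0.93 ± 0.12, with no overlap. Each of these was lower in 7 of 7 experiments.

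Srsf6, an SR protein known for its role in alternative exon choice, went from 97.6, 143 and 215 CPM to 51.4, 77.3 and 100 CPM, by -0.91 ± 0.15 (adjusted p = 7.1e-08), and was lower in 7 of 7 experiments although the ranges overlapped slightly. Srsf3 went to 113, 206 and 227 CPM (-0.84 ± 0.12, no overlap), Srsf7 to 50.2, 115 and 149 CPM (-0.51 ± 0.13), Srsf5 to 218, 327 and 506 CPM (-0.38 ± 0.11) and Srsf2 to 135, 243 and 645 CPM (-0.34 ± 0.11). The ranges of the last 3 overlapped.

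Hnrnpab was lower by -0.92 ± 0.19 with 27.3, 50.8 and 87.8 CPM in astrocyte-like cells. Hnrnpu with 168, 237 and 264 CPM (-0.19 ± 0.11, adjusted p = 0.19) and Hnrnpa2b1 with 292, 471 and 645 CPM (-0.14 ± 0.10, adjusted p = 0.26) were not called. Hnrnpa0 was called lower (-0.65 ± 0.14) but rested on the Version 3 experiments, at -0.85 there and 0.28 in the Version 2 experiments. The astrocyte-like sums were the smallest of the gates, from 55237 UMIs.

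Of 26 core snRNP genes 19 were lower and none higher (Snrpg -1.30 ± 0.12), of 13 other hnRNP proteins 6 were lower and none higher, and of 10 SR-related genes 7 were lower and 1 higher, the higher one being Son at 0.63 ± 0.09. Of the 9 tested kinases and import factors 1 was lower (Srpk1, -0.55 ± 0.22) and none higher, and of 17 lineage regulators 7 were lower and 1 higher (Khdrbs3 -0.89 ± 0.17).

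The step into the cell cycle in the oligodendrocyte lineage was measured in cycling OPC-like against OPC-like cells, in 3 Version 3 experiments. Of 31 members tested 21 were higher and none was lower, while 15.6% of the 9828 genes tested were called higher and 14.7% lower. At an unadjusted p under 0.05 the counts were 26 higher and 0 lower, for which no share over all genes was counted. DESeq2 called 19 members higher and 0 lower. The median was 0.50 for the members and -0.05 for all genes, with 6 of 11 Srsf (median 0.44) and 15 of 20 Hnrnp genes (median 0.52) higher. DESeq2 split all genes into 1043 higher and 439 lower, against 1531 and 1446 here.

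In these comparisons with few experiments the values are given in the order 1 month, 6-8 months 2 and 6-8 months 3. Hnrnpab had 215, 270 and 222 CPM in cycling OPC-like cells, against 81.8 to 112 CPM (median 105, n = 7) in OPC-like cells, and was higher by 1.16 ± 0.10 (adjusted p = 4.1e-17). Srsf7 had 393, 403 and 405 CPM against 192 to 373 CPM (median 206) and was higher by 1.00 ± 0.08 (adjusted p = 2.9e-18). Neither overlapped with OPC-like cells.

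Hnrnpa3 had 411, 515 and 450 CPM against 231 to 340 CPM (median 263), by 0.82 ± 0.08, and Hnrnpa1 had 465, 408 and 390 CPM against 208 to 319 CPM (median 268), by 0.80 ± 0.08. Srsf3 had 769, 902 and 829 CPM against 406 to 514 CPM (median 495), by 0.76 ± 0.07, and Hnrnpu had 441, 535 and 471 CPM against 174 to 302 CPM (median 264), by 0.72 ± 0.08. All cycling values of these 4 genes lay above all OPC-like values. Srsf2 had 437, 400 and 620 CPM against 264 to 668 CPM (median 335), by 0.72 ± 0.08, and Hnrnpa2b1 had 461, 601 and 468 CPM against 317 to 510 CPM (median 354), by 0.62 ± 0.08, both overlapping with OPC-like cells only through Version 2 values.

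Srsf5 had 359, 252 and 306 CPM against 253 to 419 CPM (median 366) and was 1 of 10 members not called. Its difference of -0.07 ± 0.08 was not called (adjusted p = 0.58). Srsf12, an SR protein with a restricted pattern of expression, was tested here with 24 UMIs in cycling OPC-like cells and was not called (-0.31 ± 0.33). Besides these, Srsf6, Srsf9, Srsf11, Hnrnph2, Hnrnpk, Hnrnpll, Hnrnpm and Hnrnpul2 were not called, at values from -0.09 to 0.32.

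The sum of the same 6 genes, Ccnd2 among them, was higher here too. It ran from 2067 to 2696 CPM in cycling OPC-like cells, with 5 of 6 detected. In OPC-like cells it ran from 699 to 996 CPM, with 6 of 6. The part of these genes in the result was not tested. Of 26 core snRNP genes 14 were higher and none lower (Snrpd1 0.92 ± 0.08), of 13 other hnRNP proteins 9 were higher and 1 lower (Raly 1.17 ± 0.11, Rbm3 0.92 ± 0.08, Ptbp1 0.89 ± 0.17), of 10 SR-related genes 3 were higher and 1 lower (Tra2b 0.73 ± 0.09, Son -0.26 ± 0.07), and of 9 kinases and import factors 1 was higher and 1 lower. Lineage regulators were more often lower, 7 of 22 against 1 higher (Srrm3 -0.78 ± 0.18).

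The steps into cycling of the neural and oligodendrocyte lineages were then set against each other in 1 fit over the 3 experiments that held all 4 gates. The neural step was larger for 24 of 30 members tested and smaller for none, while 20.5% of the 9711 genes tested were larger and 19.6% smaller. At an unadjusted p under 0.05 the counts were 26 larger and 0 smaller, for which no share over all genes was counted. DESeq2 called 24 members larger and 0 smaller. Over all genes DESeq2 called 1453 larger and 1892 smaller. The median difference of the steps was 0.81 for the members and 0.08 for all genes.

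It was largest for Hnrnpa1 (1.97 ± 0.16, adjusted p = 1.1e-08), Hnrnpab (1.74 ± 0.15, adjusted p = 1.9e-08), Hnrnpd (1.40 ± 0.14, adjusted p = 1.1e-07) and Hnrnpa0 (1.34 ± 0.13, adjusted p = 1.0e-07), positive in 3 of 3 experiments each. The cycling OPC-like levels of Hnrnpd were 343, 283 and 359 CPM and those of Hnrnpa0 639, 683 and 588 CPM, all below every Version 3 value of the cycling neural gate. Among Srsf genes it was 1.00 ± 0.12 for Srsf3, 0.98 ± 0.16 for Srsf9, 0.97 ± 0.18 for Srsf6 and 0.96 ± 0.12 for Srsf7, and 8 of 10 were called.

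The rest of the splicing machinery was read in the same fit. The neural step was larger for 17 of 26 core snRNP genes and smaller for none (Snrpb2 1.35 ± 0.22), larger for 10 of 13 other hnRNP proteins and smaller for none (Rbmx 1.72 ± 0.16, Rbm3 1.67 ± 0.14), larger for 4 and smaller for 1 of 10 SR-related genes (Tra2b 1.03 ± 0.16, Son -0.76 ± 0.13), and larger for 2 and smaller for 1 of 9 kinases and import factors (Srpk1 0.97 ± 0.17). Among lineage regulators 17 of 25 had the larger step in the neural lineage and 4 the smaller (Elavl2 3.97 ± 0.31). The quiescent NSC-like gate limits neuroblast markers, which bears on neuronal genes such as Elavl2.

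The 6 members for which the difference of the steps was not called were Hnrnpa2b1 (-0.10 ± 0.12), Hnrnpf (0.27 ± 0.13), Hnrnph2 (0.11 ± 0.20), Hnrnpul1 (0.48 ± 0.20, adjusted p = 0.060), Srsf1 (0.15 ± 0.17) and Srsf5 (-0.26 ± 0.15). Srsf1, the founding SR protein, and Hnrnpf were higher in the cycling gate of both lineages. The 2 steps do not start alike, since the neural step joins stem cells to a gate that also holds intermediate progenitors, whereas the oligodendrocyte step stays within OPC-like cells.

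**Figure D4:**
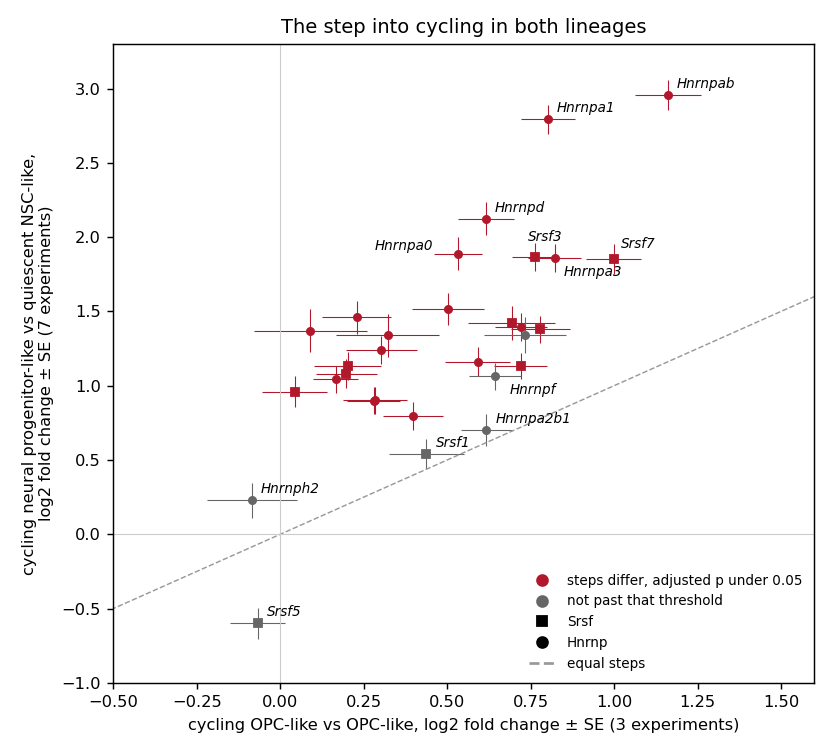
For each member, the difference of cycling neural progenitor-like from quiescent NSC-like cells (vertical axis, log2 fold change ± SE, 7 experiments) against that of cycling OPC-like from OPC-like cells (horizontal axis, 3 experiments), squares for Srsf and circles for Hnrnp, red where the 2 steps differ at an adjusted p under 0.05 and a dashed line for equal steps. Most members lie above the line, Hnrnpab (2.96 against 1.16) and Hnrnpa1 (2.79 against 0.80) farthest up, and Srsf5 is below 0 on both axes.

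Entry into oligodendrocyte differentiation gave a divided picture. In newly formed oligodendrocyte-like against OPC-like cells (4 experiments, the same OPC-like cells as above) 10 of 31 members were higher and 6 lower, while 19.4% of the 9239 genes tested were called higher and 38.7% lower. The median was 0.05 for the members and -0.20 for all genes. The choice of scaling matters here, since TMM moved the median of all genes to 0.00 and gave 18 members higher and 3 lower (2606 and 2593 of all genes) and DESeq2 moved it to -0.06 and gave 14 and 2 (1824 and 2096). The median of the members was 0.25 under TMM and 0.21 with DESeq2, and without the block for experiment 3 members were higher and 2 lower (1028 and 2340 of all genes).

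Values for this gate follow the order 1 month, 2 months 1, 6-8 months 2 and 6-8 months 3. Hnrnpab had 224, 282, 231 and 200 CPM, above all OPC-like values (81.8 to 112 CPM), and was higher by 1.07 ± 0.08 (adjusted p = 3.2e-10). Srsf6 had 262, 378, 275 and 280 CPM against 152 to 212 CPM in OPC-like cells (median 164), higher by 0.84 ± 0.08 (adjusted p = 1.8e-08). Hnrnpa1 had 441, 440, 321 and 474 CPM and was higher by 0.77 ± 0.08 (adjusted p = 3.1e-08). For these 3 genes no newly formed oligodendrocyte-like value fell into the OPC-like range.

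Srsf12 had 4.12, 8.80, 7.36 and 4.17 CPM against 12.9 to 27.1 CPM (median 17.2), without overlap, and was lower by -1.54 ± 0.33 (adjusted p = 0.00045), from 17 UMIs in the newly formed gate and 512 in OPC-like cells. The other 5 members called lower were Srsf4 (-0.57 ± 0.15), Srsf1 (-0.55 ± 0.11), Hnrnph3 (-0.36 ± 0.10), Srsf10 (-0.30 ± 0.08) and Hnrnpa0 (-0.22 ± 0.08). Without 6-8-month experiment 3, 3 members were called lower (2594 of all 9114 genes, against 3578 of 9239 with it).

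Of the remaining genes followed in every comparison, Srsf3 had 752, 678, 568 and 620 CPM (0.39 ± 0.08), Srsf2 had 404, 713, 294 and 426 CPM (0.32 ± 0.08), Srsf7 had 276, 264, 211 and 237 CPM (0.27 ± 0.08) and Hnrnpu had 350, 264, 346 and 332 CPM (0.25 ± 0.08), all called higher. Srsf3 lay above all OPC-like values and the other 3 overlapped with them. Srsf5 with 346, 449, 215 and 292 CPM (-0.14 ± 0.08) and Hnrnpa2b1 with 341, 484, 330 and 320 CPM (0.05 ± 0.08) were not called.

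The other lists differed. Of 26 lineage regulators, 22 were tested and 16 were lower against 2 higher (Srrm3 -3.45 ± 0.23, Rbfox1 -3.30 ± 0.28). Of 26 core snRNP genes 8 were higher and 2 lower, of 13 other hnRNP proteins 5 higher and 3 lower (Taf15 -0.79 ± 0.12, Rbm3 0.60 ± 0.09), of 10 SR-related genes 1 higher and 5 lower, and of 10 kinases and import factors 4 higher and 2 lower, with the muscle-enriched kinase Srpk3 at 1.57 ± 0.18.

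Maturation to myelinating oligodendrocyte-like cells went with lower shares. Against newly formed oligodendrocyte-like cells (4 experiments, the same newly formed cells) 25 of 30 members tested were lower and none higher, while 46.0% of the 8112 genes tested were called lower and 18.2% higher. At an unadjusted p under 0.05 the counts were 25 lower and 0 higher, for which no share over all genes was counted. The median was -0.73 for the members and -0.37 for all genes. Under TMM, with the median of all genes at 0.03, 15 members were lower and 4 higher (2226 and 2469 of all genes) and with DESeq2, at -0.04, 13 were lower and 1 higher (1789 and 1676), and the median of the members was -0.33 and -0.40.

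Srsf6 fell from the values above to 62.9, 84.5 and 124 CPM (lowest, median, highest of 7 experiments), by -1.74 ± 0.13 (adjusted p = 7.4e-10). Hnrnpa1 fell to 126, 162 and 174 CPM, by -1.49 ± 0.12 (adjusted p = 2.9e-09), and Hnrnpab to 76.7, 104 and 114 CPM, by -1.15 ± 0.11 (adjusted p = 6.5e-08). The newly formed gate stood above OPC-like and myelinating oligodendrocyte-like cells without overlap for these 3 genes, and both comparisons rest on the same newly formed cells.

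Srsf7 fell to 85.7, 116 and 167 CPM (-1.10 ± 0.12), Srsf3 to 240, 285 and 347 CPM (-1.06 ± 0.14), Srsf2 to 85.7, 259 and 401 CPM (-0.99 ± 0.17), Hnrnpu to 120, 179 and 264 CPM (-0.62 ± 0.15) and Hnrnpa2b1 to 160, 256 and 456 CPM (-0.53 ± 0.12). Srsf3, Srsf7 and, by less than the rounding, Hnrnpu did not overlap with the newly formed gate. Srsf5 with 244, 316 and 368 CPM (-0.00 ± 0.13, adjusted p = 0.99), Hnrnph3 (-0.02 ± 0.13), Hnrnph2 (0.27 ± 0.13), Hnrnpul2 (0.30 ± 0.19) and Srsf4 (-0.36 ± 0.19) were not called. Srsf5 and Hnrnph3 had the opposite sign under TMM (0.40 and 0.38), as had Hnrnpc (0.09, against -0.32 ± 0.12 here).

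The 1-month experiment held 16 myelinating oligodendrocyte-like cells, and without it 24 members were lower and 1 higher (3723 and 1512 of all genes). Of 26 core snRNP genes 20 were lower and none higher (Snrpd1 -1.87 ± 0.11), of 13 other hnRNP proteins 9 were lower and 1 higher (Ptbp1 -2.22 ± 0.22, Rbmx -1.56 ± 0.13), of 10 SR-related genes 7 were lower and none higher (Pnn -1.00 ± 0.15), of 10 kinases and import factors 6 were lower and none higher (Srpk1 -1.89 ± 0.16), and of 14 lineage regulators 8 were lower and 3 higher (Khdrbs2 -4.80 ± 0.27).

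The levels of several members followed the chemistry. The 3 Version 2 experiments (2 months) all lay below the 4 Version 3 experiments for Hnrnpa0, Hnrnpd and Srsf9 and all above them for Srsf1 and Srsf2, in quiescent NSC-like, neuroblast-like and OPC-like cells alike. In quiescent NSC-like cells 7 members lay above and 4 below in this way (10.3% and 10.8% of 8801 genes), in neuroblast-like cells 8 and 5 (15.8% and 16.5% of 8539), and in OPC-like cells 7 and 5 (17.3% and 19.3% of 9706).

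Hnrnpa0 differed most. Its level in quiescent NSC-like cells was 12.6 to 41.7 CPM in Version 2 and 219 to 358 CPM in Version 3 experiments, a ratio of means of 9.37, and the ratio was 11.0 in neuroblast-like and 7.21 in OPC-like cells. For Hnrnpd the ratios were 4.05, 3.25 and 3.90 and for Srsf9 2.25, 3.12 and 2.43. In the other direction Srsf2 was 2.03, 1.55 and 2.05 times as high in Version 2 and Srsf1 1.95, 1.59 and 1.95 times. Each direction was the same in all 3 gates, and age 2 months and chemistry cannot be told apart in them.

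**Figure D5:**
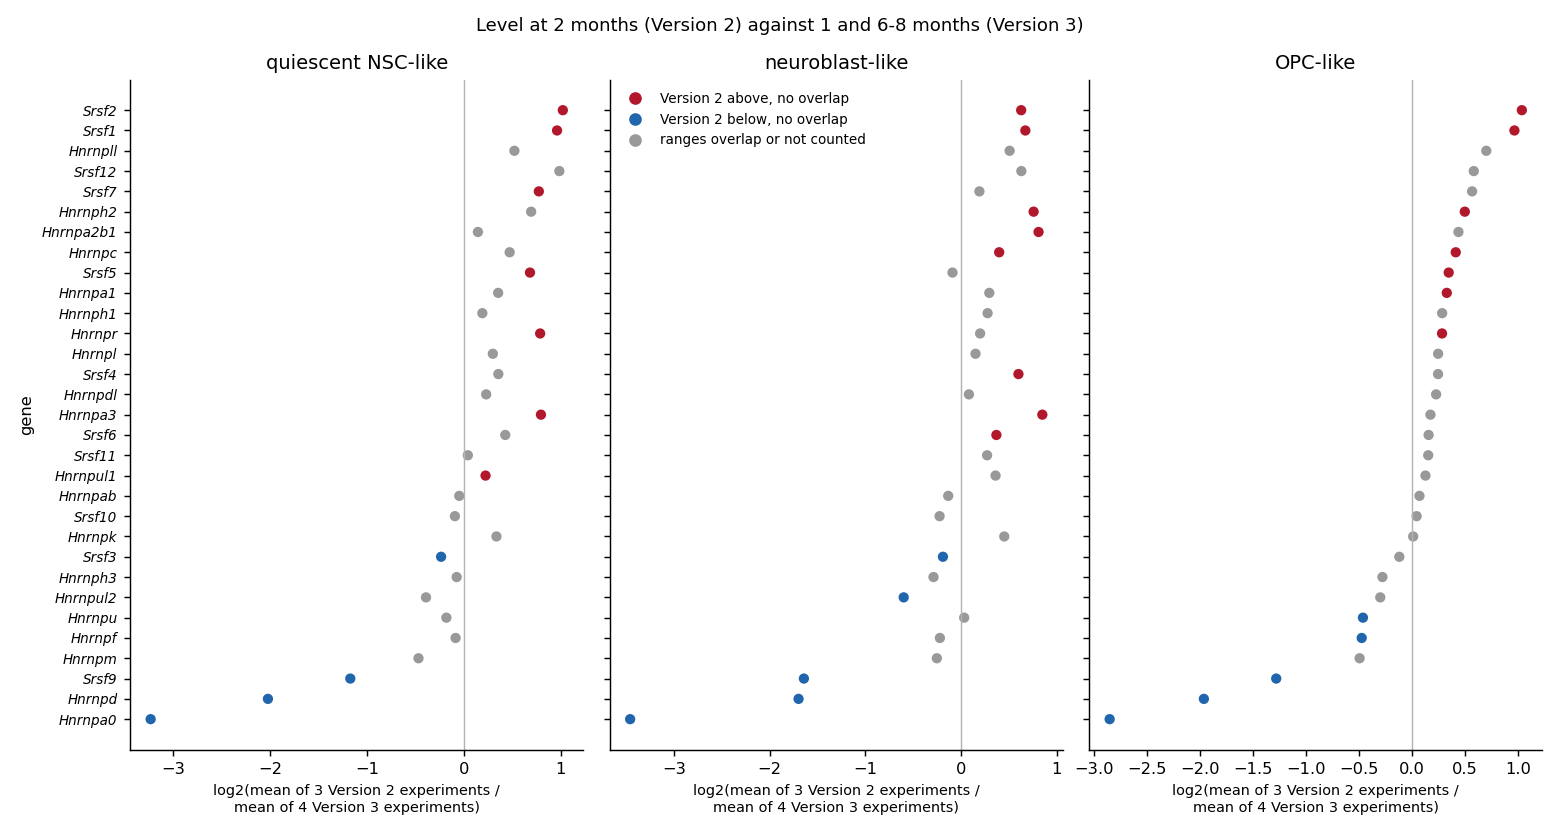
Log2 of the mean level in the 3 Version 2 experiments (2 months) over the mean in the 4 Version 3 experiments (1 and 6-8 months), for each member in quiescent NSC-like, neuroblast-like and OPC-like cells, coloured where the 2 sets of experiments do not overlap. Hnrnpa0 lies farthest to the left in all 3 panels, followed by Hnrnpd and Srsf9.

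Age was read within Version 3 only, as the place of the single 1-month experiment against the range of the 3 experiments at 6-8 months, which allows no test. In quiescent NSC-like cells 1 of 30 members lay above that range and 14 below, where 14.0% of 8621 genes lay above and 26.8% below. In neuroblast-like cells 0 of 31 lay above and 13 below (17.0% and 24.3% of 8394 genes), and in OPC-like cells 10 above and 4 below (20.4% and 27.5% of 9571 genes). The median log2 ratio of 1 month to 6-8 months was -0.12, -0.11 and 0.03 for the members of the 3 gates and -0.10, -0.05 and -0.04 for all genes.

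Among the wider gaps, Hnrnpll in neuroblast-like cells was at 48.1 CPM against 72.2 to 83.4 CPM at 6-8 months, and Srsf6 in quiescent NSC-like cells at 97.6 CPM against 139 to 146 CPM. Hnrnpm was below in all 3 gates, at 85.7 CPM against 109 to 120 CPM in quiescent NSC-like, 119 against 154 to 209 in neuroblast-like and 109 against 148 to 166 in OPC-like cells. Hnrnpl was below in 2 of them, at 86.0 CPM against 94.6 to 164 CPM in quiescent NSC-like and 137 against 141 to 185 CPM in neuroblast-like cells. In OPC-like cells Srsf5 was above (366 CPM against 253 to 334 CPM), as were Hnrnpdl (353 against 297 to 304) and Hnrnpa0 (484 against 381 to 460). With 1 experiment at 1 month, age cannot be told apart from that preparation.

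Over the means of the 9 gates, the genes whose pattern was most like the summed Hnrnp share among 9601 genes were Nono (Pearson r = 0.995), Nudt21 (0.991), Trim28 (0.990), Serbp1 (0.987) and Brd3 (0.986). For the summed Srsf share they were Rbmxl1 (0.993), Magoh (0.990), Rnps1 (0.989), G3bp1 (0.986) and Cbx3 (0.984). These are correlations of log2(CPM + 1) across 9 points that share libraries and depth, and they are given as a description.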

How the data were processed

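The deposited values are raw UMI counts per gene and cell, which per the labels and the study's methods the authors made with Cell Ranger 3.0.2 on a custom mm10 genome (mm10-3.0.0), with cutadapt 1.18 and Seurat named in the processing notes, and which were used as deposited. A cell was used if it had more than 500 detected genes and a mitochondrial share below 10%. The study's cell type names were not used here, so gates were rebuilt from marker lists (for example at least 4 stem cell genes with 5 shared glial genes, or 5 cycling genes), and names may differ from the study's. Cells with markers of 2 lineages (500, or 2.05%) were left out as possible doublets, and no doublet caller was run. Counts were summed per experiment and gate (at least 10 cells), with both libraries of 2-month experiment 1 as 1 experiment.

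Genes with a mean of at least 10 CPM over the sums were tested with edgeR 4.0.16 (quasi-likelihood, total-UMI scaling, R 4.3.3), with the experiment as a block, and p-values were adjusted by Benjamini-Hochberg over all genes tested at 0.05. The SE of a log2 difference was derived from this test, as the absolute difference divided by the square root of the F statistic. It is thus an approximation. Within an experiment all gates were drawn from 1 pool of animals, which makes the sums paired, and deviations of paired sums correlated at 0.0831 to 0.604. Alternatives included TMM, DESeq2 1.42.0, other filters and gates, and each chemistry alone. Counts at an unadjusted p were made for the members only, so they have no share over all genes beside them. The scripts were tested on simulated counts with 200 genes changed by 1 on the log2 scale and no difference between experiments. From 73.8% to 91.5% of these were recovered in the comparisons of 2 gates, but only 48.3% in the difference of the cycling steps. False calls made up 2.04% to 7.94% of the calls, the most in that difference. A member not called there may therefore still differ. Members and lists were chosen with earlier results of these data known. Values are given for 8 members (Srsf2, Srsf3, Srsf5, Srsf7, Hnrnpa1, Hnrnpa2b1, Hnrnpab, Hnrnpu), for the 4 members per comparison with the largest difference past the threshold and the same sign in every experiment, and for up to 3 genes of each other list by size. Some splicing regulators at or near 0 UMIs in a gate (Srrm4, Celf3) fall under that rule but their fitted differences depend on the prior count and are not printed.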

Additional observations from a re-analysis of the deposited data

Results flagged for a closer look

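Values far from their group were looked for in 80 groups of 4 or 7 experiments, and 4 were found, where chance gives about 1 in 20. The summed Hnrnp share in OPC-like cells was 0.353% in 2-month experiment 1, the lowest of 7. Hnrnpa2b1 in newly formed oligodendrocyte-like cells was 484 CPM in the same experiment, the only Version 2 experiment of the 4. Hnrnpab was highest in 6-8-month experiment 2 in both quiescent NSC-like (107 CPM) and neuroblast-like cells (473 CPM).

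The step into cycling differed between the lineages by a test of the difference itself for 24 members, each with the larger step in the neural lineage. The neural step joins stem cells to a gate that also holds intermediate progenitors, so cycling and lineage stage cannot be told apart from that step alone. The differences in log2 were 1.97 for Hnrnpa1, 1.74 for Hnrnpab, 1.40 for Hnrnpd, 1.34 for Hnrnpa0, 1.16 for Hnrnpm, 1.14 for Hnrnpll, 1.02 for Hnrnpa3, 1.02 for Hnrnph1, 1.00 for Hnrnpul2, 0.88 for Hnrnph3, 0.82 for Hnrnpk, 0.69 for Hnrnpl, 0.67 for Hnrnpc, 0.63 for Hnrnpdl, 0.57 for Hnrnpr and 0.52 for Hnrnpu. For the Srsf genes they were 1.00 for Srsf3, 0.98 for Srsf9, 0.97 for Srsf6, 0.96 for Srsf7, 0.81 for Srsf11, 0.68 for Srsf4, 0.62 for Srsf10 and 0.59 for Srsf2. Mean levels of the genes with the largest differences are given from the 3 experiments that held every gate. In quiescent NSC-like, cycling neural progenitor-like, intermediate progenitor-like and neuroblast-like cells, Hnrnpa1 had 179, 1213, 1283 and 1157 CPM. In the same order Hnrnpa0 had 292, 1044, 973 and 996 CPM. Hnrnpab had 87.4, 635, 446 and 408 CPM, and Hnrnpd 142, 576, 312 and 314 CPM. The part of lineage stage was not tested.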

How the results depend on the processing

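Of 3259 values of single members under the alternatives, 3080 kept direction and side of the threshold, 123 lost the call, 51 gained it and 5 reversed. The counts of members called in cycling neural progenitor-like against quiescent NSC-like cells, in cycling OPC-like against OPC-like cells and in the difference of the 2 steps stayed within 1.5 times under all alternatives run. In myelinating against newly formed oligodendrocyte-like cells, members higher were 4 with TMM, 1 with DESeq2 and 1 with at least 20 cells (reported 0; leaving out each experiment 0 to 1, with 1 without the 1-month experiment), and members lower were 15 with TMM and 13 with DESeq2 (reported 25). In neuroblast-like against cycling neural progenitor-like cells, members higher were 0 with TMM, 0 with DESeq2 and 0 to 1 on leaving out each experiment (reported 1). In newly formed oligodendrocyte-like against OPC-like cells, members higher were 18 with TMM (reported 10), and members lower were 3 with TMM, 2 with DESeq2 and 3 to 8 on leaving out each experiment (reported 6). Over all genes, leaving out each experiment gave 1032 to 1531 higher in the myelinating comparison (reported 1480). It gave 2911 to 3159 higher in the neuroblast-like comparison (reported 3192) and 2594 to 3544 lower in the newly formed comparison (reported 3578). In the neuroblast-like comparison 2978 of all genes were higher with TMM and 2472 with DESeq2.

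Without the replicate block, which pairs gates of the same animals, members higher in newly formed oligodendrocyte-like cells were 3 and lower 2, members lower in astrocyte-like cells were 12 (reported 19) and members higher in neuroblast-like cells 0; the other counts stayed within 1.5 times. The summed Hnrnp share in cycling OPC-like cells was 0.656% with 1 more marker per gate, against 0.629%. The reversed values were Hnrnpa0 in astrocyte-like against quiescent NSC-like cells with Version 2 only (0.28) and, in myelinating against newly formed cells, Hnrnpc with TMM (0.088) and DESeq2 (0.0044), Hnrnph3 with TMM (0.38) and Srsf5 with TMM (0.40). Over all genes, counts outside 1.5 times the main value included cycling OPC-like against OPC-like cells, with 439 lower with DESeq2 and 966 higher and 399 lower without the block (reported 1531 and 1446), and 838 higher and 462 lower without 6-8-month experiment 3. Where the construction does not show it, the cause was not tested. Srsf12 rests on 4 to 512 UMIs per gate, and the smallest sum in a comparison held 55237 UMIs.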
